A study of Rattus norvegicus and Mus musculus with 22 samples.

Results

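The genes described here are Txnip, the 4 Arrdc genes and the regulators Mlxipl and Mlx, 7 of the 29047 distinct gene symbols in 6 expression tables. They were chosen by name, matched to the gene symbols without regard to case, and all 7 were found in every table. The choice was made with the forskolin responses of Txnip and Arrdc4 in islets and INS-1 cells already known, so those values are given as a description. The study measured RNA by sequencing in mouse and rat cells treated with forskolin, a plant compound that activates adenylyl cyclase and raises cAMP. Wild-type groups were primary pancreatic islets and primary hepatocytes cultured from black6 mice, each left untreated or given forskolin at 10 µM for 2 h, with 2 libraries per group. INS-1, a rat insulinoma line used as a beta cell model, had the same design. A further 10 groups had 1 library each. They were islets from CRTC2KO mice labelled as whole body, with and without forskolin; INS-1 cells as control, with forskolin, with forskolin plus JQ1 (1 µM for 4 h) and with forskolin plus A-485 (10 µM for 4 h); and AR42J cells, a rat pancreatic acinar line, named for GFP or NeuroD1, each with and without forskolin. The inhibitor experiment held no library with JQ1 or A-485 alone, so an inhibitor could be compared only on top of forskolin. The labels give no animal age, and they do not say whether the replicates came from separate animals or cultures. The p-values therefore cover differences among these particular libraries, and the spread behind them may be technical.

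Alpha-arrestins are adaptor proteins with an arrestin fold; several carry motifs that recruit NEDD4-family ubiquitin ligases to membrane proteins. TXNIP binds thioredoxin and promotes removal of glucose transporters from the cell surface, and in beta cells it is known as a glucose-induced gene whose product favours cell death. ARRDC4 is its closest relative and is likewise known to be induced by glucose. Both are classical targets of the glucose-sensing factors ChREBP (encoded by Mlxipl) and MondoA (encoded by Mlxip), which bind DNA together with their partner MLX at carbohydrate response elements built from paired E-boxes. JQ1 displaces BET bromodomain proteins from acetylated histones, and A-485 inhibits the acetyltransferases p300 and CBP, which are coactivators of the cAMP-responsive factor CREB. CRTC2 is another CREB coactivator.

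Promoter sequences bear on members that share regulators, so 3 rat promoters are shown. Of the 7 members, 6 had a window in the RefSeq promoter table (rat build GRCr8), and Txnip had none. Each sequence is the 250 bases before the gene start, 5′ to 3′ on the gene's strand. Capitals mark CACGTG (the E-box core of a carbohydrate response element), CCAAT on either strand (written ATTGG on the other), and TGACG or CGTCA (the short form of the cAMP response element). The windows are Arrdc4 at chr1:131793426-131793675 on the minus strand, Mlx at chr10:86519636-86519885 on the plus strand and Arrdc2 at chr16:18635633-18635882 on the plus strand.
Arrdc4: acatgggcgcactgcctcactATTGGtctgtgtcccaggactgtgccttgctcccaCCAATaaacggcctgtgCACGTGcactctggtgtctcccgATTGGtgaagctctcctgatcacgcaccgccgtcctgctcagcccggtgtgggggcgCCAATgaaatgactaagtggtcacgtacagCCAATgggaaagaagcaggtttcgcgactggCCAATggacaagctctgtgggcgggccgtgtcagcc
Mlx: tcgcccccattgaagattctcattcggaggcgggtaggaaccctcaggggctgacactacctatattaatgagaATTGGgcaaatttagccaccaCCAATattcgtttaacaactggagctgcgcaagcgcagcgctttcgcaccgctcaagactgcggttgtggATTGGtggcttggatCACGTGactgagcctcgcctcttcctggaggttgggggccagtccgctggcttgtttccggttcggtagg
Arrdc2: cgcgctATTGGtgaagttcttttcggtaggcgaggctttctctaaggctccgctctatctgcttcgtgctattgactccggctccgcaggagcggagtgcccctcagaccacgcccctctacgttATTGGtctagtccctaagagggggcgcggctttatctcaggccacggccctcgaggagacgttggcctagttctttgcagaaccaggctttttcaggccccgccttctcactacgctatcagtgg

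The Arrdc4 window held 6 CCAAT matches and 1 CACGTG, which starts at position -177 from the gene start. Among 33360 rat promoter windows of the same length, both strands searched, 0.033% held at least 6 CCAAT matches, 34% held at least 1, and 5.61% held CACGTG. The Mlx window held 1 CACGTG and 3 CCAAT, and the Arrdc2 window held 2 CCAAT and no CACGTG. The Arrdc3 window held 1 CCAAT, and both Mlxipl windows held 2. TGACG, present in 18.2% of windows, was found only in Arrdc1 among the 6 members, at position -15. The full palindrome TGACGTCA occurred in none of these windows and in 1.59% of all windows. The carbohydrate response element consensus, a pair of degenerate E-boxes with a fixed spacer, occurred in none of them and in 0.474% of all windows. TGACG is part of TGACGTCA, and each motif was counted on its own. A match is a run of letters and was not tested for binding.

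The replicated tables hold regularised log2 values, on which differences of weakly expressed genes are drawn towards 0, and the unreplicated tables hold values read as FPKM, which are per transcript length. The totals per library that the column headers give, read here as numbers of reads (M, megareads), ran from 3.07 to 3.88 M in islets. They ran from 1.95 to 6.20 M in hepatocytes and from 2.08 to 5.33 M in the 3 INS-1 libraries whose total is given. In the FPKM tables the depth was estimated from the steps of low values at 0.609 M reads for knockout islets with forskolin, the shallowest library, and at up to 5.79 M for the others. Defining markers went with the labels: all 8 beta cell markers were present in every islet library and all 8 were at 0 or below in every hepatocyte library. The 6 that were found in the INS-1 tables were all above 0, and all 8 acinar markers were present in AR42J cells. The first forskolin islet library stood apart by hepatocyte markers. The summed linear level of 9 such markers was 9506 there, against 4135 in its control and 4063 and 4061 in the second control and forskolin library. None of the 9 was at 0. A sum is governed by its highest genes. The median log2 difference over the 9 was 2.74 in the first pair and 0.03 in the second. In whole islets and cultures, fewer cells of a type and less RNA per cell cannot be told apart.

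Txnip was the member with the largest forskolin difference in both islets and INS-1 cells. In wild-type islets its regularised log2 level was 8.14 and 8.24 in the controls and 6.94 and 6.67 in the forskolin libraries. Both forskolin libraries lay below both controls, and the difference was -1.39 (SE 0.22, n = 2 against 2), a 2.61-fold lower level on this shrunken scale. The difference was -1.20 between the libraries numbered 1 and -1.57 between those numbered 2. Hepatocyte markers differed within the first pair, as given above, and acinar markers within the second, where the 8 summed to 3621 in the control and 6006 with forskolin, against 1659 and 1521 in the first pair. The part of either marker list in the Txnip values was not tested. In INS-1 cells Txnip stood at 10.31 and 9.76 in the controls and at 7.57 and 7.54 with forskolin. Again the groups did not overlap, and the difference was -2.48 (SE 0.18, n = 2 against 2), or 5.57-fold. The authors' deposited table gives log2 fold changes of -1.92 in islets and -3.61 in INS-1 cells for Txnip, an estimate on another scale than the regularised columns.

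Of the 7 members tested in islets, 1 passed limma's test (Benjamini-Hochberg adjusted p under 0.05) as lower and none as higher. Over all 13656 islet genes tested, 0.242% were called lower and 1.72% higher. In the authors' deposited table Txnip is again the only member called in islets, beside 0.369% of all genes called lower and 2.83% higher. In INS-1 cells 2 of the 7 members, Txnip and Arrdc4, were called lower and none higher, where 1.24% of 10345 genes were called lower and 3.07% higher. The authors' deposited table calls the same 2 members lower, beside 0.902% of genes lower and 2.7% higher. The family was chosen with these calls known, so nothing is read from the counts. Leaving out either islet control ended the Txnip call in islets: the limma adjusted p was 0.145 without control 1 and 0.228 without control 2, with differences of -1.44 and -1.33. Without the forskolin library that carried the hepatocyte markers, the islet difference was -1.52.

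**Figure D1:**
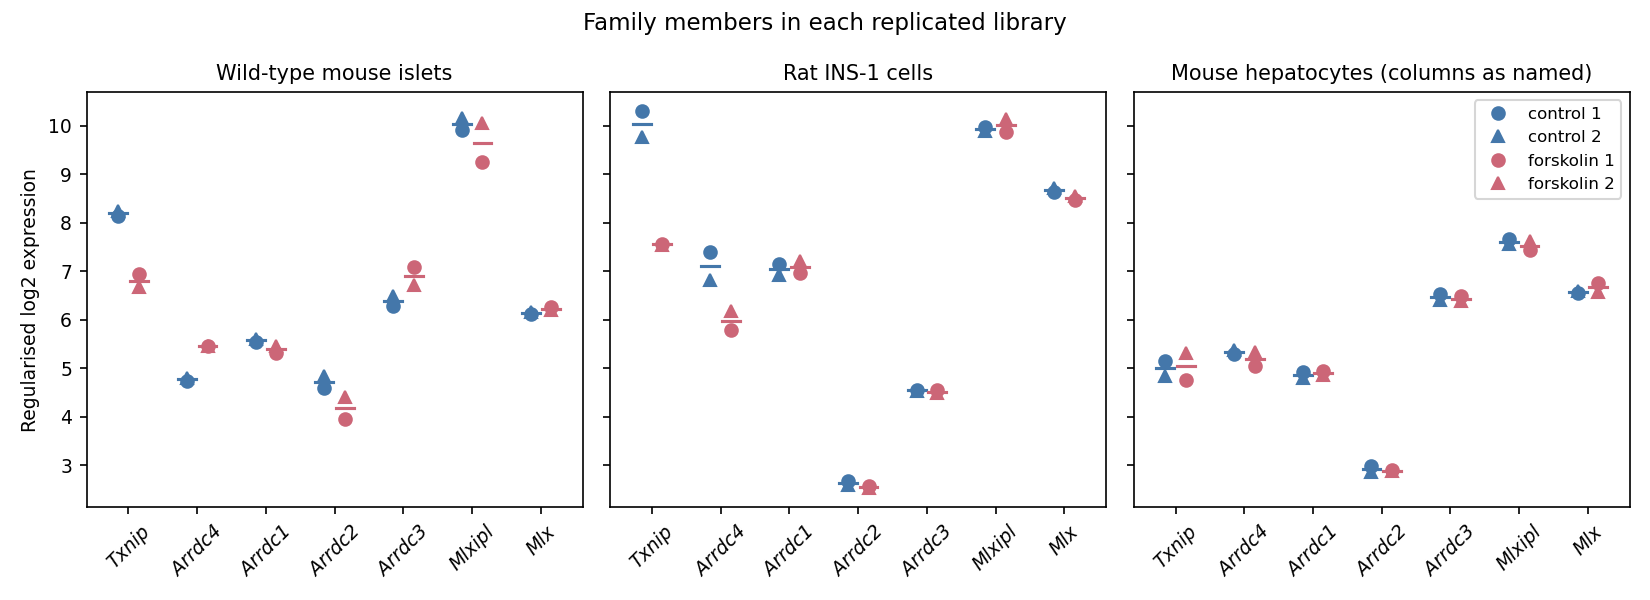
Regularised log2 expression (vertical axis) of the 7 genes in the 4 libraries of wild-type islets, INS-1 cells and hepatocytes, with the libraries as their columns are named; circles are replicate 1, triangles replicate 2 and bars the group means. Txnip with forskolin lies below both controls in islets (6.94 and 6.67) and INS-1 cells (7.57 and 7.54), while Arrdc4 lies above its controls in islets and below them in INS-1 cells.

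Txnip was also lower with forskolin in every unreplicated pair of libraries, which have 1 library per group and so no test. In the inhibitor experiment on INS-1 cells, Txnip was 160 FPKM in the control and 12.9 FPKM with forskolin. That is a log2 ratio of -3.53, computed here with 1 FPKM added to both values, and 12.4-fold without it. In AR42J cells named for GFP, Txnip was 49.5 FPKM in the control and 9.93 FPKM with forskolin, a log2 ratio of -2.21. In AR42J cells named for NeuroD1 it was 62.1 and 14.4 FPKM, a log2 ratio of -2.03. The NeuroD1 libraries held Neurod1 at 3323 and 3834 FPKM against 3.44 and 5.67 FPKM in the GFP libraries, which goes with the names of the libraries. The share of all genes with a log2 ratio of -1 or less was 4.34% in the INS-1 inhibitor experiment, 0.69% in GFP cells and 1.22% in NeuroD1 cells. At least 1 upwards was reached by 5.11%, 1.11% and 1.27% of genes and by no member. Of the members that reached 1 FPKM, 2 of 7, 1 of 6 and 2 of 6 had a ratio of -1 or less in these 3 comparisons, Arrdc4 being the second in INS-1 and NeuroD1 cells.

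The knockout table sets the response without CRTC2 beside that of wild-type islets. Crtc2 itself was 7.77 and 9.58 FPKM in the knockout control and forskolin libraries and 18.7 and 13.9 FPKM in the wild-type columns. It was thus lower but not at 0 in the libraries labelled as knockout, and the sources used here do not give the part of the gene that was deleted. Txnip was 66.4 FPKM in the wild-type control and 12.5 FPKM in wild-type islets with forskolin, a log2 ratio of -2.32. In knockout islets it was 54.4 FPKM in the control and 20.3 FPKM with forskolin, a log2 ratio of -1.38. Txnip was therefore lower with forskolin in both genotypes, in a table where 6.61% of genes in wild-type and 11.5% in knockout islets had a ratio of -1 or less. The test of a difference between genotypes is not possible with 1 library per group. The forskolin knockout library was the shallowest and its 20.3 FPKM rests on about 34 estimated reads. Hepatocyte markers also stood higher there: the 9 summed to 5178 FPKM, against 2047 in the knockout control and 1829 and 1642 FPKM in the wild-type columns, with 8 of 9 at least 2-fold higher than in the knockout control. In the knockout control 7 of 9 were already at least 2-fold above the wild-type control, with a median log2 ratio of 1.69. Acinar markers moved too: their sum was 207 FPKM in the knockout control and 1145 FPKM in the knockout forskolin library, against 2463 and 4589 FPKM in the wild-type columns. Of 6 acinar markers tested, 5 were at least 2-fold higher with forskolin in knockout islets, and 5 in the controls and 6 with forskolin were at least 2-fold lower in knockout than in wild-type islets. Of 8 beta cell markers, 4 were at least 2-fold higher with forskolin in knockout islets, where 12.1% of genes were. In wild-type islets 1 of the 8 was, where 9.2% of genes were. The 8 summed to 512734 FPKM in the knockout control and 908691 FPKM in the wild-type control, with a median log2 ratio of -0.54 and none past 2-fold. The only hepatocyte marker at 0 was Serpina1a in the wild-type forskolin column. The acinar markers Prss1, Amy2a5 and Ptf1a were at 0 in both knockout libraries. Zeros were not confined to the knockout: Prss1 was at 0 in the wild-type control column and Ptf1a in the wild-type forskolin column. These acinar markers were also at 0 or below in every replicated wild-type islet library. The part of the hepatocyte, acinar and beta cell markers in the Txnip values was not tested. The wild-type columns may be the second islet pair: across 6256 genes their forskolin ratios correlated at r = 0.86 with that pair and at 0.409 with the first, so they are not counted as a further replicate.

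**Figure D2:**
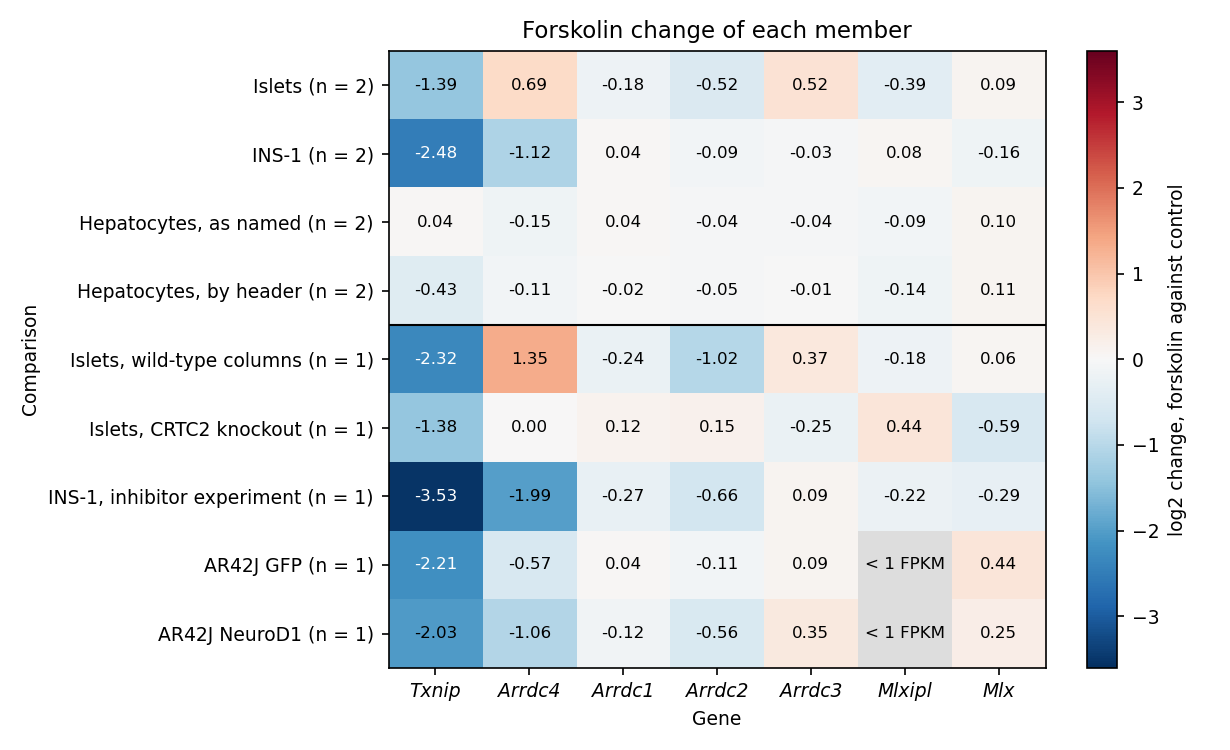
Log2 change with forskolin against control for each of the 7 genes (columns) in each comparison (rows); blue is lower and red higher with forskolin. Rows above the line are differences of mean regularised log2 values over 2 libraries per group, with the hepatocyte columns as named and as the table's header orders them; rows below it are log2 ratios of FPKM + 1 with 1 library per group, and Mlxipl is left grey where it was under 1 FPKM. Txnip is negative in every row except hepatocytes as named, from -0.43 to -3.53; Arrdc4 is 0.69 and 1.35 in wild-type islets and -1.12 and -1.99 in INS-1 cells.

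In the inhibitor experiment, Txnip and Arrdc4 had ratios of opposite sign with the inhibitors. Txnip, at 12.9 FPKM with forskolin alone, was 57.5 FPKM with JQ1 and forskolin and 58.5 FPKM with A-485 and forskolin. These are log2 ratios of 2.07 and 2.10 against forskolin alone. Both inhibitor libraries stayed below the 160 FPKM of the untreated control, by -1.46 and -1.44. Against the control, 12.8% of genes were at -1 or less and 10.5% at 1 or more with JQ1 and forskolin, and 8.66% and 4.93% with A-485 and forskolin. Arrdc4 went the other way: it was 62.2 FPKM in the control, 14.9 FPKM with forskolin, 5.92 FPKM with JQ1 and forskolin and 2.39 FPKM with A-485 and forskolin. Its log2 ratios against forskolin alone were -1.20 with JQ1 and -2.23 with A-485, and the lowest value rests on about 12 estimated reads. Over all 10025 genes, 8% had a ratio of at least 1 and 7.55% of -1 or less with JQ1 against forskolin; with A-485 the shares were 5.32% and 9.37%. Among the 7 members, 2 were past 1 upwards with each inhibitor (Txnip and Arrdc2), 1 downwards with JQ1 (Arrdc4) and 2 downwards with A-485 (Arrdc3 and Arrdc4). Both inhibitor ratios share the single forskolin library, so a high or low value there enters both.

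**Figure D3:**
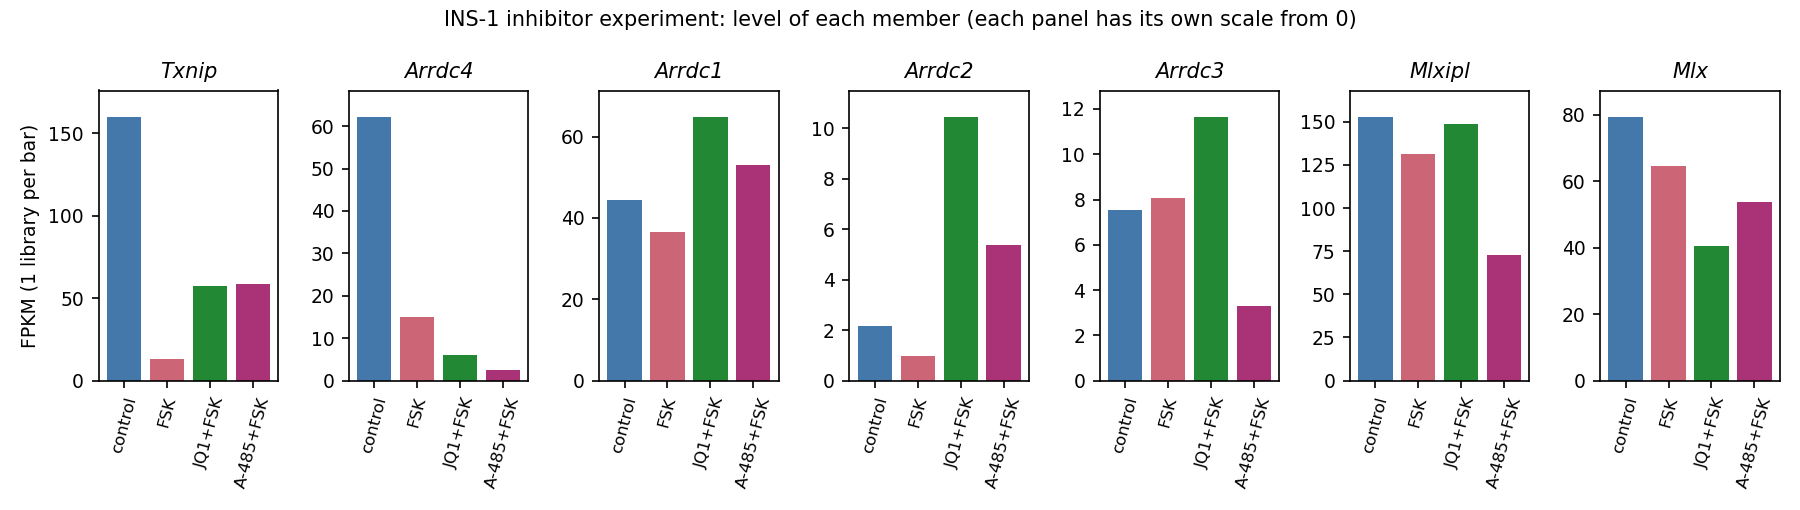
FPKM of each of the 7 genes (1 panel each, with its own vertical scale from 0) in the 4 libraries of the INS-1 inhibitor experiment: control, forskolin (FSK), and forskolin plus JQ1 or A-485. Txnip goes from 12.9 with forskolin to 57.5 and 58.5 with the inhibitors, while Arrdc4 goes from 14.9 to 5.92 and 2.39; each bar is 1 library.

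Arrdc4 had opposite directions in islets and INS-1 cells. In wild-type islets its log2 level was 4.74 and 4.80 in the controls and 5.47 and 5.46 with forskolin. The forskolin libraries lay above both controls, by 0.69 (SE 0.17, n = 2 against 2), but the difference did not pass the test across all genes (limma, adjusted p = 0.102; 0.166 in the authors' deposited table). In INS-1 cells Arrdc4 was 7.39 and 6.82 in the controls and 5.78 and 6.18 with forskolin. Both forskolin libraries lay below both controls, by -1.12 (SE 0.19), and the authors' deposited table gives -1.92. That INS-1 call ended when limma was run without the variance trend (adjusted p = 0.0822). In the knockout table Arrdc4 was 2.93 FPKM in the wild-type control and 8.998 FPKM with forskolin, a log2 ratio of 1.35. In knockout islets it was 3.39 FPKM in both libraries, the forskolin value resting on about 8 estimated reads. The share of genes with a ratio of at least 1 was 9.2% in wild-type islets and 12.1% in knockout islets. Between genotypes, Arrdc4 with forskolin was the only member of 7 with a knockout against wild-type ratio past 1, at -1.19, where 9.21% of genes were at -1 or less and 9.65% at 1 or more. Between the control libraries of the genotypes no member was past 1, where 3.99% of genes were higher and 1.82% lower in the knockout. In AR42J cells Arrdc4 was low: 2.15 and 1.12 FPKM in GFP cells and 6.22 and 2.47 FPKM in NeuroD1 cells, in control and forskolin, or at most about 18 estimated reads.

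Arrdc2 and Arrdc3, alpha-arrestins linked to receptor trafficking, did not pass the test with forskolin in islets or INS-1 cells. Arrdc2 in islets was 4.58 and 4.83 in the controls and 3.96 and 4.41 with forskolin, a difference of -0.52 (SE 0.20; limma adjusted p = 0.289). Arrdc3 was 6.28 and 6.49 in the controls and 7.10 and 6.71 with forskolin, a difference of 0.52 (SE 0.23; limma adjusted p = 0.35). Neither gene's groups overlapped in islets. With 2 libraries per group, unchanged genes can separate in this way too. In islets 3 members separated upwards and 3 downwards, Mlx and Arrdc1 among them, and 1 overlapped. The share over all genes was not counted, so nothing is read from separation for any member. For Arrdc2 and Arrdc3 the forskolin libraries differed from one another by more than the controls did. Leaving out the second forskolin islet library brought both past the threshold (limma adjusted p = 0.0202 for Arrdc2 and 0.0252 for Arrdc3), with Arrdc4 at 0.0234 and Mlxipl at 0.0196; the same setting called 1874 genes higher and 961 lower, against 235 and 33 with all 4 libraries. The library that this leaves is the one with the raised hepatocyte markers, whose part in these calls was not tested. In INS-1 cells the differences were -0.09 for Arrdc2 and -0.03 for Arrdc3 (SE 0.06 and 0.10; limma adjusted p = 0.475 and 0.906).

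With the inhibitors, Arrdc2 was 0.987 FPKM with forskolin alone, 10.4 FPKM with JQ1 and forskolin and 5.37 FPKM with A-485 and forskolin. The log2 ratios were 2.53 and 1.68. Unlike Txnip, Arrdc2 was then above its untreated control of 2.15 FPKM with both inhibitors, by 1.86 and 1.02. The forskolin value rests on about 9 estimated reads. Arrdc3 was 8.09 FPKM with forskolin, 11.7 FPKM with JQ1 and forskolin and 3.30 FPKM with A-485 and forskolin, so the inhibitors gave ratios of different sign (0.48 and -1.08). In AR42J cells Arrdc2 was 3.62 FPKM in GFP and 10.2 FPKM in NeuroD1 controls, a log2 ratio of 1.27. Arrdc4 had a ratio of 1.20 in the same comparison. These were the 2 members of 6 past 1, where 6.69% of genes were higher and 4.66% lower. With forskolin the Arrdc2 ratio was 0.82 and no member was past 1, where 5.7% of genes were higher and 4.05% lower.

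Arrdc1, an alpha-arrestin known for driving the budding of vesicles from the plasma membrane, had small forskolin differences. Its forskolin difference was -0.18 in islets (SE 0.18; limma adjusted p = 0.677) and 0.04 in INS-1 cells (SE 0.15; limma adjusted p = 0.906), with overlapping groups in INS-1 cells. Its FPKM ran from 11.4 to 15.5 in the knockout table and from 20.2 to 25.4 in AR42J cells. In the inhibitor experiment it was 44.4 FPKM in the control, 36.6 FPKM with forskolin, 64.8 FPKM with JQ1 and forskolin and 52.9 FPKM with A-485 and forskolin, all within a log2 ratio of 0.81 of each other.

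**Figure D4:**
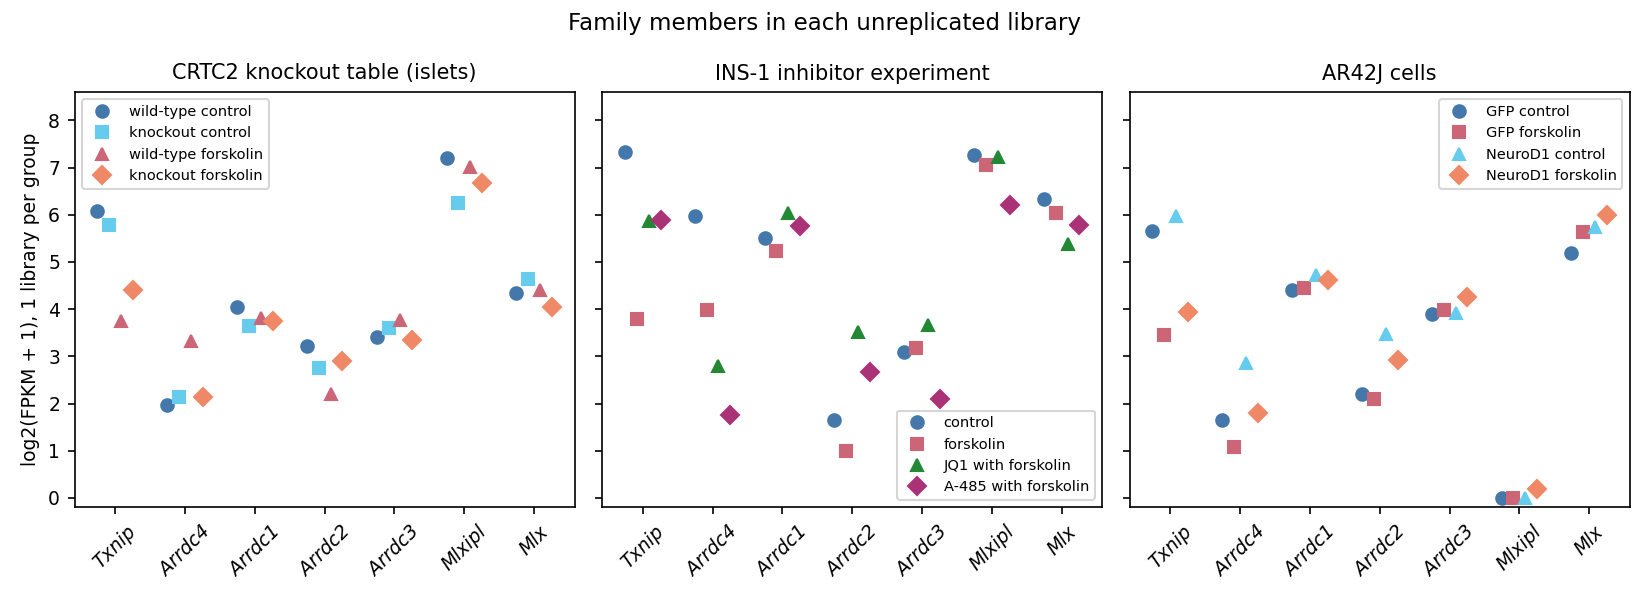
log2(FPKM + 1) of the 7 genes in each library of the CRTC2 knockout table, the INS-1 inhibitor experiment and AR42J cells, with 1 library per group. Txnip with forskolin lies below its control in all 5 pairs, and Mlxipl is at or near 0 in AR42J cells but among the highest members in islets and INS-1 cells.

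Neither regulator passed the test with forskolin. Mlxipl, which encodes ChREBP, was 9.91 and 10.16 in islet controls and 9.24 and 10.05 with forskolin. The groups overlapped, and the difference of -0.39 (SE 0.32) did not pass (limma adjusted p = 0.61). The value turned on the forskolin library used: it was 0.01 without library 1, the one with raised hepatocyte markers, and -0.79 without library 2 (limma adjusted p = 0.0196). Quantile normalisation gave -0.75 (limma adjusted p = 0.221). In INS-1 cells Mlxipl was 9.98 and 9.89 in the controls and 9.88 and 10.14 with forskolin, a difference of 0.08 (SE 0.15; limma adjusted p = 0.849). Mlx, the partner of ChREBP and MondoA, differed by 0.09 in islets and -0.16 in INS-1 cells (SE 0.19 and 0.14; limma adjusted p = 0.872 and 0.592). Mlxipl was 74.5 FPKM in knockout control islets against 146 FPKM in the wild-type column, a log2 ratio of -0.96. With forskolin it was 102 and 128 FPKM. The summed beta cell markers, as given above, were also lower in the knockout control, and their part in the Mlxipl values was not tested. Mlxip, which encodes MondoA, was 10.1 FPKM in the knockout and 21.5 FPKM in the wild-type control. With A-485 and forskolin, Mlxipl was 72.9 FPKM against 131 FPKM with forskolin and 153 FPKM in the control. With JQ1 and forskolin it was 149 FPKM, and Mlx was 40.5 FPKM against 64.7 FPKM with forskolin. In AR42J cells Mlxipl was listed at 0 in 3 libraries and at 0.135 FPKM in the NeuroD1 forskolin library, about 1 estimated read. Mlx was 35.4 to 62.7 FPKM in the same cells. In AR42J GFP cells Txnip was 4.98-fold lower with forskolin. Mlxip was not found under that symbol for AR42J cells or the inhibitor experiment, so the level of its RNA there is not known. The part of ChREBP or MondoA in the Txnip values was not tested.

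In hepatocytes the columns and the table's header disagree about the second pair. The header lists the libraries behind the second pair of columns in the order forskolin, control, and names the forskolin one with 1 h, whereas the columns are named control 2 and forskolin 2 and the labels give 2 h. Across 15492 genes the authors' deposited log2 fold changes correlated at r = 0.197 with the columns as named and at r = 0.975 with the second pair exchanged. The authors' fold changes thus followed the header's order. By that order the summed cAMP and CREB targets, described below, rose with forskolin in both pairs, from 909 to 2399 and from 931 to 2882. The values as named are given beside it because the columns carry those names. As named, Txnip was 5.16 and 4.84 in the controls and 4.77 and 5.31 with forskolin, a difference of 0.04 (SE 0.19; limma adjusted p = 1.00). The groups overlapped, and the pairs went in opposite directions. By the header, Txnip was 5.16 and 5.31 in the controls and 4.77 and 4.84 with forskolin, a difference of -0.43 (limma adjusted p = 0.43). The authors' deposited table gives -0.71 for Txnip with an adjusted p of 0.146. Txnip did not pass in any of these 3 readings. It passed only when the exchanged columns were fitted with the replicate number as a block (limma adjusted p = 9.18e-10), and the labels do not say that the numbers pair the libraries. The other 6 members differed by -0.15 to 0.11 in both readings. As named, limma called 0 genes in either direction (0% of 12593; 32 at an unadjusted p under 0.05), while the authors' deposited table calls 50 genes higher and 7 lower, 0.323% and 0.0452% of 15492, no member among them.

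The place of Txnip among the members by level differed between cells. In wild-type control islets, per transcript length, Mlxipl led with 146 FPKM, then Txnip with 66.4, Mlx with 19.4, Arrdc1 with 15.5, Arrdc3 with 9.55, Arrdc2 with 8.35 and Arrdc4 with 2.93 FPKM. In INS-1 control cells Txnip (160 FPKM) and Mlxipl (153 FPKM) were nearly level, followed by Mlx at 79.4, Arrdc4 at 62.2, Arrdc1 at 44.4, Arrdc3 at 7.52 and Arrdc2 at 2.15 FPKM. In AR42J GFP controls Txnip led with 49.5 FPKM, Mlx had 35.4, Arrdc1 20.2, Arrdc3 14.0, Arrdc2 3.62 and Arrdc4 2.15 FPKM. With 1 library per group, neighbours in these orders cannot be told apart beyond a spread. In hepatocytes, where 2 controls exist, the mean regularised log2 level less the log2 of transcript length in kilobases was 5.75 for Mlxipl, 5.59 for Mlx, 4.44 for Arrdc3, 4.11 for Arrdc1, 3.52 for Txnip, 3.37 for Arrdc4 and 1.70 for Arrdc2. These hepatocyte levels use the columns as named, and whether Txnip and Arrdc4 differ beyond their spread depends on which columns are the controls. Txnip was thus 1 of the lower members in hepatocytes and 1 of the 2 highest in the islet and INS-1 controls. The places of Arrdc4 and Arrdc3 are not compared between species, since the rat transcript models used have 935 and 1236 bases and the mouse models 3893 and 4080.

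Lists of pathway genes around the family are set beside the shares of all genes called by limma. These were 1.72% higher and 0.242% lower in islets, and 3.07% higher and 1.24% lower in INS-1 cells. Of 22 ChREBP and MondoA network genes tested in islets none was called by limma. Of 14 tested in INS-1 cells 1 rose, Rgs16, which restrains G protein signalling, by 0.66 (limma adjusted p = 0.0167). The medians were 0.12 and 0.06, against 0.01 and 0.00 over all genes. The authors' deposited table calls 1 of 23 higher in islets (2.83% of all genes) and 2 of 23 in hepatocytes (0.323%). Of 20 network genes in the unreplicated wild-type islet columns, 4 were at 1 or more with forskolin and 1 at -1 or less. Over all genes 9.2% and 6.61% were. In knockout islets 6 of 20 were at 1 or more and none at -1 or less, beside 12.1% and 11.5% of all genes. Cell type markers differed in these libraries too, and their part was not tested. In the thioredoxin system, with 17 genes tested in islets and 16 in INS-1 cells, Srxn1 (sulfiredoxin, which restores oxidised peroxiredoxins) rose by 2.12 in islets and 1.65 in INS-1 cells (limma adjusted p = 0.00551 and 0.000534). Ddit4, an inhibitor of mTORC1 signalling, rose by 0.67 in INS-1 cells (limma adjusted p = 0.0101). None of these genes was called lower, and Txn1, thioredoxin itself, differed by 0.34 in islets and 0.16 in INS-1 cells without passing (limma adjusted p = 0.572 and 0.675). None of 8 NEDD4-family ligases, none of 2 other arrestins and none of 12 (islets) or 9 (INS-1) glucose uptake and phosphorylation genes was called. In the unreplicated wild-type islet columns 1 of 11 genes of that list was at 1 or more with forskolin, Slc2a1 (the glucose transporter GLUT1, 29.1 against 9.01 FPKM), and 1 at -1 or less, Slc2a2 (the transporter GLUT2, 93.2 against 249 FPKM). Over all genes 9.2% were at 1 or more and 6.61% at -1 or less. In the INS-1 inhibitor experiment 1 of 9 was at 1 or more, again Slc2a1, and 1 at -1 or less, where 5.11% and 4.34% of genes were. Nothing is read from these counts. Arrdc5, another alpha-arrestin, was listed at 0 in all 12 FPKM columns.

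The cAMP and CREB target list served as a check of the treatment. Of its 10 genes, 8 of 10 tested in islets and 9 of 9 in INS-1 cells rose, with median differences of 3.05 and 2.23. In hepatocytes as named none of 10 was called. Their median difference was 0.93 in the first pair and -1.34 in the second, with summed levels of 909 and 2399 in control 1 and forskolin 1 and of 2882 and 931 in the columns named control 2 and forskolin 2. The authors' deposited table calls 7 of the 10 higher in hepatocytes. In AR42J cells 4 of 10 were at 1 or more with forskolin in GFP cells and 9 of 10 in NeuroD1 cells. The list includes Nr4a3 (an orphan nuclear receptor), Crem (a cAMP-responsive repressor) and Sik1 (a kinase that restrains CRTC coactivators). With A-485 and forskolin, 6 of 9 were at -1 or less against forskolin alone, Ppargc1a going from 37.6 to 1.64 FPKM. With JQ1 and forskolin, 1 of 9 was, again Ppargc1a, at 5.42 FPKM. Txnip, as given above, stood near 58 FPKM with either inhibitor. A-485 also left 4 of 12 ChREBP and MondoA network genes at -1 or less: Mid1ip1 went from 587 to 48.4 FPKM, Rgs16 from 326 to 41.1 FPKM, Gpd1 from 266 to 118 FPKM and Fgf21 from 1.02 FPKM to a listed 0. Over all genes 9.37% were at -1 or less in this comparison. Beta cell markers moved with it: 3 of the 6 found (Pdx1, Nkx6-1 and Slc30a8) were at -1 or less, none of the 6 was at 0, the list's median was -1.10, and its summed level went from 82313 to 48346 FPKM. The part of these markers in the network values was not tested. The median of that list was -0.75 with A-485, against 0.01 over all genes, and 0.07 with JQ1, against -0.05. Slc2a2 went from 545 to 101 FPKM with A-485.

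The genes with the pattern most like Txnip were sought over all 24 library columns, each centred on its table's mean, among 6929 genes with a level of at least 1 in each table. By the smallest root mean square difference of log2 levels, the nearest 5 were Grb7 (0.674), Sall2 (0.696), Ypel5 (0.697), Klf11 (0.714) and Cpt2 (0.721); a flat line lay at 0.982 from Txnip, so even the nearest gene was not close. The forskolin differences of the 5 were -0.84 to -0.60 in INS-1 cells and -0.95 to -0.10 in islets, given without a test because these columns chose the genes. Arrdc4 ranked 5071 by this measure. With JQ1 and forskolin, Ypel5 had a ratio of 1.03 against forskolin alone and the others -0.42 to 0.22, where Txnip had 2.07. By the largest correlation over the same columns, which share libraries and depth, the nearest gene was instead Otud7b (r = 0.893, n = 24 columns), and the nearest 5 by the measures had no gene in common.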

How the data were processed

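RNA was sequenced from directional libraries, per the labels' protocols. For the replicated tables the authors counted strand-specific exon reads with HOMER on mm10 or rn6 and deposited regularised log2 values beside a log2 fold change and raw and adjusted p-values of their own, per the file headers. No unit is named in the other tables. The deposited values there were read as FPKM made by the authors, since the smallest values times transcript length gather at 1 constant in each library. Read numbers derived from that constant are estimates: 50.4% to 67.7% of low values came within 0.1 of a whole read. The submitters' processing notes name TopHat2 2.0.9, STAR, HOMER and DESeq2; the sources used here do not tie an aligner to a table.

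Samples were grouped by title, giving 16 groups of 22 libraries. Forskolin was compared with control in each replicated table by limma 3.58.1 in R 4.3.3 on the deposited log2 values, with a variance trend, over all genes with a group mean of at least 1 and Benjamini-Hochberg adjustment. Tables were normalised separately, so effects in different tables are only set side by side. The test was checked on simulated data. In the FPKM tables the log2 ratio had a pseudocount of 1, so that changes of weakly expressed genes come out too small, and a gene had to reach 1 FPKM in at least 1 library; there is no test. The alternatives were no trend, other filters, quantile and median normalisation, a replicate block, leaving out each library, other pseudocounts and the authors' values. The exchanged hepatocyte columns without a block were added after seeing the data.

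The members and gene lists were chosen with earlier results of these data known. Named genes are all members, at most 4 genes per list and table past the threshold with the largest change, and the 5 genes nearest to Txnip, except 1 list gene that is not reported here; Mlxip, Txn1, Arrdc5, Crtc2, Neurod1, Slc2a1 and Otud7b were named beside them for their role or as checks.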

Additional observations from a re-analysis of the deposited data

Results flagged for a closer look

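With the hepatocyte columns as named, some members went one way in both numbered pairs of libraries of one cell type and the other way in both pairs of another. These differences between cell types were not tested, because the tables were normalised separately. How many of all genes meet the same rule was not counted, and the replicate numbers were not taken as a pairing. Nothing is therefore read from the agreement of pairs, which for Arrdc3 in INS-1 cells rests on -0.008 and -0.049. Arrdc4 differed by 0.69 with forskolin in islets and by -1.12 in INS-1 cells, and by -0.15 in hepatocytes as the columns are named. Arrdc3 differed by 0.52 in islets, by -0.03 in INS-1 cells and by -0.04 in hepatocytes. Mlx differed by 0.087 in islets and -0.16 in INS-1 cells, and Arrdc1 by -0.18 in islets and 0.04 in hepatocytes. Apart from Arrdc4 in INS-1 cells, none of these values passed limma's test, and the hepatocyte values depend on which columns hold the second pair. By the header's order, the hepatocyte pairs went in opposite directions for Arrdc4 (-0.25 and 0.04), Arrdc3 (-0.05 and 0.03) and Arrdc1 (0.02 and -0.06). The contrasts with hepatocytes were then no longer met.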

How the results depend on the processing

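Of 240 recomputed values of members in the replicated tables, 214 kept their direction and side of the threshold, 19 changed sign, 4 came past the threshold and 3 fell short of it; the cause was not tested. In INS-1 cells, quantile normalisation gave 0.014 for Arrdc3 and -0.12 for Mlxipl. In hepatocytes, exchanging the second pair gave -0.43 for Txnip and -0.022 for Arrdc1, and the authors' deposited table gives -0.71 and -0.036. Leaving out 1 library in turn gave ranges that cross 0 for Mlxipl in islets (-0.79 to 0.012), for Arrdc1 (-0.076 to 0.16) and Mlxipl (-0.059 to 0.21) in INS-1 cells, and for Txnip (-0.23 to 0.31), Arrdc1 (-0.021 to 0.10), Arrdc2 (-0.10 to 0.028), Arrdc3 (-0.10 to 0.022) and Mlxipl (-0.17 to 0.0031) in hepatocytes. Of 273 values of members in the unreplicated tables, 252 stayed close to the main value and 21 moved, mostly with the pseudocount. The counts of called genes moved more. In islets, genes higher were 235 and genes lower 33; leaving out 1 library gave 116 to 1874 and 7 to 961, 483 and 63 were called in the authors' deposited table, and genes lower were 12 without the variance trend, 18 without a filter, 56 with a group mean of at least 5 and 52 with quantile normalisation. In INS-1 cells, 318 and 128 became 198 to 367 and 36 to 148 without 1 library, and 194 and 32 without the trend. In hepatocytes, 0 and 0 became 3 higher with the second pair exchanged, 0 to 4 higher without 1 library, and 50 and 7 in the authors' deposited table.

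A replicate block gave 667 higher and 120 lower in islets, 774 and 691 in INS-1 cells, and, with the second hepatocyte pair exchanged, 393 and 227, with Txnip in hepatocytes at -0.43 and Arrdc1 at -0.022 (limma adjusted p = 9.18e-10 and 0.945). Deviations of same-numbered libraries had a correlation of -0.055 for islets, 0.40 for hepatocytes and 0.44 for INS-1 cells. With 2 pairs and no label of a shared animal or day, the numbers were not taken as a pairing. In the FPKM tables depth limits Mlxipl in AR42J cells (0 to 1 estimated reads), Arrdc4 (from 3) and Arrdc2 (from 9).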
